A study of Mus musculus with 11 samples.

Results

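LECs are the cells that line lymph vessels, and 4 genes tied to their identity are described here: *Lyve1*, *Flt4*, *Sox18*, and *Pdpn*. They were chosen by gene symbol, the first 3 in the libraries of HaCa4 cells and *Pdpn* in those of LECs, out of 290 genes listed for HaCa4 and 191 for LECs (458 different genes in all). HaCa4 is a mouse skin squamous carcinoma line, and the LECs are a mouse dermal line (imLEC) made conditionally immortal by the Immortomouse transgene, of which more than 1 clone was used interchangeably in the study. Bulk RNA was sequenced from 11 libraries. HaCa4 control (n = 2) and LEC control (n = 3) were single cultures, whereas HaCa4-sorted (n = 3) and LEC-sorted (n = 3) were recovered by FACS from co-cultures of the 2 cell types after 24 h. In the sort, HaCa4 cells were recognised by the dye CFSE and LECs by an antibody to CD31, and dead cells and doublets were gated out. The comparisons ask how these genes differed between cells taken from co-culture and cells grown alone. The sources used here do not plainly state that the controls were stained and sorted too. Effects of co-culture and of sorting therefore cannot be told apart in any comparison.

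Lymphatic identity is set up in the embryo, when SOX18 in venous endothelial cells switches on the lymphatic regulator PROX1. PROX1 in turn maintains VEGFR3, the receptor encoded by *Flt4*, through which the growth factor VEGF-C drives lymphatic sprouting. LYVE1 binds hyaluronan on the surface of lymphatic capillaries and is also found on some macrophages. PODOPLANIN, the product of *Pdpn*, is a mucin-like membrane protein that binds CLEC-2 on platelets and keeps blood and lymph apart. It is also found in keratinocytes, squamous carcinomas, and fibroblasts. None of the 4 is restricted to LECs, and SOX18 is also present in blood endothelium.

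The 4 genes lie on separate chromosomes of GRCm38.p6, the build to which the reads had been aligned. In the RefSeq annotation, *Lyve1* spans chromosome 7 from 110850607 to 110862953, *Flt4* chromosome 11 from 49609679 to 49652739, *Sox18* chromosome 2 from 181669837 to 181671640, and *Pdpn* chromosome 4 from 143267409 to 143299564. *Flt4* is read from the forward strand and the others from the reverse strand. Their reference transcripts in GENCODE M21 have 6, 30, 2, and 6 exons in the same order, and 0 other annotated genes overlap any of them. A single value is given per gene, so that isoforms and exons cannot be separated. No promoter window was available for *Lyve1* and *Sox18*, and that of *Flt4* lies within a 5′ UTR. For that reason, only the sequence upstream of the start of *Pdpn* is shown. The stretch covers the 250 bases before the RefSeq start (chr4:143299565-143299814, reverse strand, from RefSeq on GRCm38.p6), and capitals mark matches to the searched motifs.

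*Pdpn*, upstream of the start: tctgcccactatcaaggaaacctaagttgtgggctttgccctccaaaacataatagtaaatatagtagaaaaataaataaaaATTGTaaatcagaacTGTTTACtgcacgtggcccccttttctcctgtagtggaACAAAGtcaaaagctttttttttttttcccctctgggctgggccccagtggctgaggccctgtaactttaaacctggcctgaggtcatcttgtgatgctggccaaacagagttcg

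The motifs were searched on both strands, and 3 of the 8 were found upstream of *Pdpn*. The SOX-type letters ACAAAG began 115 bases before the start, and the second SOX-type motif, ACAAT, was matched once on the opposite strand. Over all 32851 RefSeq promoter windows of this length, 16.5% held ACAAAG and 27.7% held ACAAT. The forkhead-type letters TGTTTAC began 153 bases before the start and were found in 3.17% of promoters. The ETS-type letters CCGGAAG and ACAGGAAG, the NF-κB-type letters GGGACTTTC and GGAATTTCC, and the TATA-type letters TATAAA had no match there. The *Flt4* window of the same length lies within a 5′ UTR of *Flt4* in GENCODE M21 and is therefore not a purely upstream stretch, and none of the 8 motifs was matched in it. The GC content was 43.2% upstream of *Pdpn* and 68.4% in the *Flt4* window, with a median of 52.4% over all promoter windows.

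The libraries of HaCa4 cells grown alone held next to no transcripts of the 3 identity genes. *Lyve1* was listed at 0.00 TPM in HaCa4 control replicate 1 and at 0.14 TPM in replicate 2. *Flt4* was listed at 0 in both controls. *Sox18* was listed at 0.00 and 0.08 TPM. TPM, a measure of transcript abundance, is scaled to transcript length and to a fixed total per library, so that levels can be compared between genes, but it keeps no record of how many reads stood behind a value. An entry of 0 therefore says only that the gene was listed at 0.

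In HaCa4-sorted, *Lyve1*, the hyaluronan receptor, was found at 0.97, 16.7, and 5.57 TPM in replicates 1, 2, and 3 (mean 7.75 ± 8.10 TPM, SD, n = 3). All 3 sorted libraries lay above both controls, and the lowest of them, replicate 1, was still 0.97 TPM against 0.14 TPM in the higher control. The log2 fold change on the log2(TPM + 1) scale was 2.52 (standard error 0.90, 95% interval 0.33 to 4.71, limma adjusted p = 0.0613), which missed the adjusted threshold of 0.05. *Lyve1* nevertheless had the tenth place among the 290 genes when these were ordered from the highest log2 fold change down, since the test weighs a change against the spread of the replicates.

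*Flt4*, the VEGF-C receptor, was at 0.23, 5.36, and 2.13 TPM in HaCa4-sorted replicates 1 to 3 (mean 2.57 ± 2.59 TPM, SD, n = 3). Its groups did not overlap either, and no fold is given because both controls were listed at 0. On the log2(TPM + 1) scale the difference was 1.54 (standard error 0.70, 95% interval -0.16 to 3.24, limma adjusted p = 0.098). The interval reached below 0, although each sorted library was higher than each control.

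*Sox18*, the transcription factor, had the lowest level of the 3 genes, at 0.15, 4.36, and 1.23 TPM (mean 1.91 ± 2.19 TPM, SD, n = 3). Sorted replicate 1 stood only 0.15 TPM against 0.08 TPM in control replicate 2, a separation near the last decimal place of the values. The difference was 1.21 on the log2(TPM + 1) scale (standard error 0.66, 95% interval -0.40 to 2.81, limma adjusted p = 0.136).

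A gene was counted as risen or fallen when limma gave an adjusted p no higher than 0.05 and a log2 fold change of 0.5 or more in size. None of the 3 genes met both thresholds, and *Lyve1* alone had an unadjusted p under 0.05. The study, which used a different test, named *Flt4* among the genes upregulated in co-cultured HaCa4 cells, unlike the fit here. Among all 290 listed genes, 15.9% passed as higher in HaCa4-sorted. All 3 genes were higher without overlap, as were 63.1% of the listed genes, so this separation did not set them apart. The 290 genes were a selection whose rule is not given in the sources used here, and their log2 fold changes had a median of 0.74. In HaCa4 control replicates 1 and 2, 54 and 56 of them were listed at 0, against 0 in each HaCa4-sorted library. A gene near 0 in the controls may thus have been listed because of its sorted values. The tests and the separation therefore cannot be taken as independent evidence of a rise. Whether all libraries were first scaled to the same median over the 290 listed genes mattered for the calls. That scaling shifted the log2 fold changes by a median of -0.72, and *Lyve1* (2.22, limma adjusted p = 0.00168) and *Flt4* (1.33, limma adjusted p = 0.0174) then passed, whereas *Sox18* (0.99, limma adjusted p = 0.0691) did not.

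**Figure D1:**
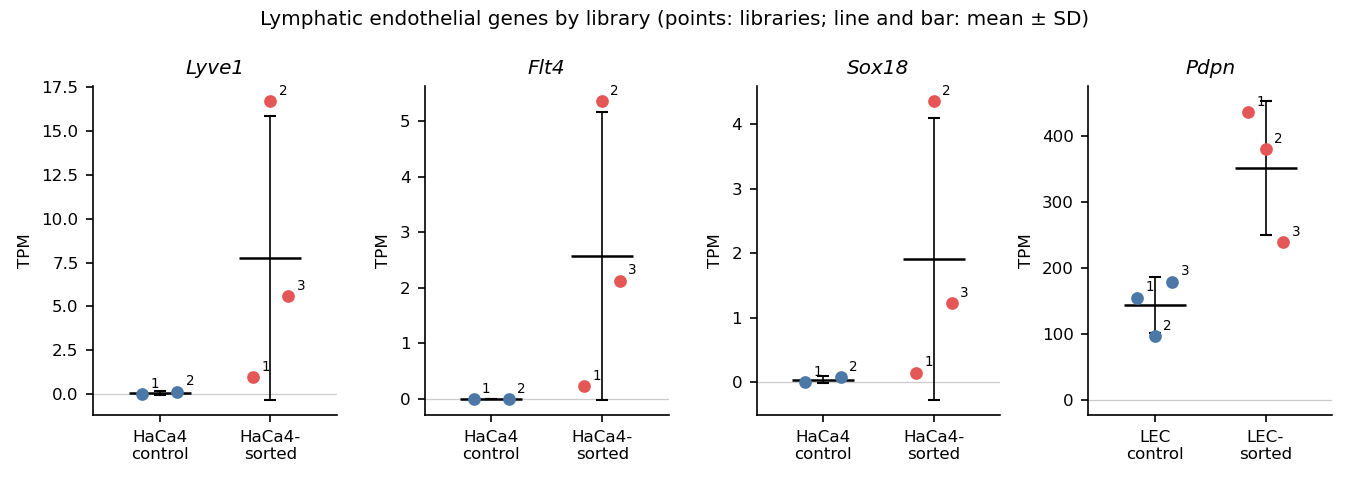
TPM of *Lyve1*, *Flt4*, and *Sox18* in HaCa4 control and HaCa4-sorted, and of *Pdpn* in LEC control and LEC-sorted; each point is 1 library with its replicate number, and the line and bar give the mean and SD. The HaCa4 controls sit between 0.00 and 0.14 TPM, the HaCa4-sorted libraries spread widely with replicate 2 on top, and the LEC-sorted libraries lie between 239 and 436 TPM, above the LEC controls.

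The spread among the sorted libraries was the main feature of the 3 genes. The SD was 104% of the mean in *Lyve1*, 101% in *Flt4*, and 114% in *Sox18*. Replicate 2 held 71.9% of the summed sorted TPM of *Lyve1*, 69.4% of that of *Flt4*, and 76.0% of that of *Sox18*, whereas replicate 1 held 4.17%, 2.98%, and 2.61%. Replicate 2 thus exceeded replicate 1 by 17.2-fold in *Lyve1*, 23.3-fold in *Flt4*, and 29.1-fold in *Sox18*. The order of the genes was the same in every sorted library, *Lyve1* above *Flt4* above *Sox18*, and their ratios varied far less than their levels. *Lyve1* was 4.22, 3.12, and 2.62 times *Flt4* in replicates 1 to 3, and *Flt4* was 1.53, 1.23, and 1.73 times *Sox18*. The group means of *Lyve1* and *Flt4* differed by less than the SD of *Lyve1* but by more than that of *Flt4*, and those of *Flt4* and *Sox18* by less than either SD.

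The call depended on a single library. When HaCa4-sorted replicate 1 was left out, all 3 genes passed both thresholds, with log2 fold changes of 3.34 in *Lyve1* (limma adjusted p = 0.00943), 2.16 in *Flt4* (limma adjusted p = 0.0111), and 1.73 in *Sox18* (limma adjusted p = 0.0204). With any 1 of the other 4 HaCa4 libraries left out instead, 0 of the 3 passed, and their log2 fold changes were between 0.62 and 2.61. The direction was positive throughout, which was fixed beforehand because each sorted library lay above both controls.

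Most endothelial markers had the same order of sorted libraries as the 3 identity genes. Of a list of 49 endothelial genes, 24 were among the HaCa4 genes, and 23 of them had a positive log2 fold change, as did 192 of all 290 listed genes. Their summed TPM was 21.6 to 25.0 in the controls and 52.9, 371, and 177 in sorted replicates 1 to 3, the same order of libraries as in the identity genes. Of these 24, 9 were listed at 0 in both controls, among them *Cdh5* (VE-cadherin, the junction protein of endothelial cells), *Emcn* (endomucin), *Robo4*, and *Erg* (an endothelial transcription factor). Over all 290 listed genes, zeros were counted in each library alone. They numbered 54 in control replicate 1 and 56 in control replicate 2, against 0 in each sorted library. These counts do not give the genes at 0 in both controls and so are no like measure for the 9. *Pecam1*, which encodes the CD31 used to sort the LECs, reached 1.29, 24.3, and 9.38 TPM in HaCa4-sorted against 0.14 and 0.04 TPM in HaCa4 control. For comparison, *Kdr*, the VEGFR2 gene and the only endothelial receptor tyrosine kinase listed for both cell lines, was at 137 to 172 TPM in LEC control, 88.5 to 117 TPM in LEC-sorted, and 0.15 to 1.87 TPM in HaCa4-sorted, although these tables were fitted separately. The part of LEC transcripts in the values of *Lyve1*, *Flt4*, *Sox18*, and these endothelial markers in HaCa4-sorted was not tested. In bulk RNA, transcripts of HaCa4 cells and transcripts of LECs in the same library cannot be told apart. Nor can more cells of a type be told from more RNA per cell.

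With limma, 4 of the 24 endothelial genes rose and 1 fell, against 46 that rose and 41 that fell of all 290 listed genes, so that the share of rises was near that of the whole list. *Emcn* (log2 fold change 4.95), *Plvap* (a protein of endothelial diaphragms, 3.62), *Ctla2a* (a protease inhibitor, 3.04), and *Selp* (P-selectin, 1.38) rose, and *Palmd* fell by 1.15 on the log2 scale. *Selp* and *Palmd* were also the endothelial genes that did not share the order of the sorted libraries. *Selp* was highest in replicate 1, with 21.5, 14.5, and 14.4 TPM, and 8.0 and 4.0 TPM were already present in HaCa4 control. Outside the 3 identity genes, 26 of the 29 lymphatic and endothelial genes had replicate 2 highest and replicate 1 lowest, as did 41.7% of all listed HaCa4 genes. The medians of these 29 genes were 5.33% of the sorted TPM in replicate 1, 64.5% in replicate 2, and 30.9% in replicate 3, close to the shares in the identity genes.

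**Figure D2:**
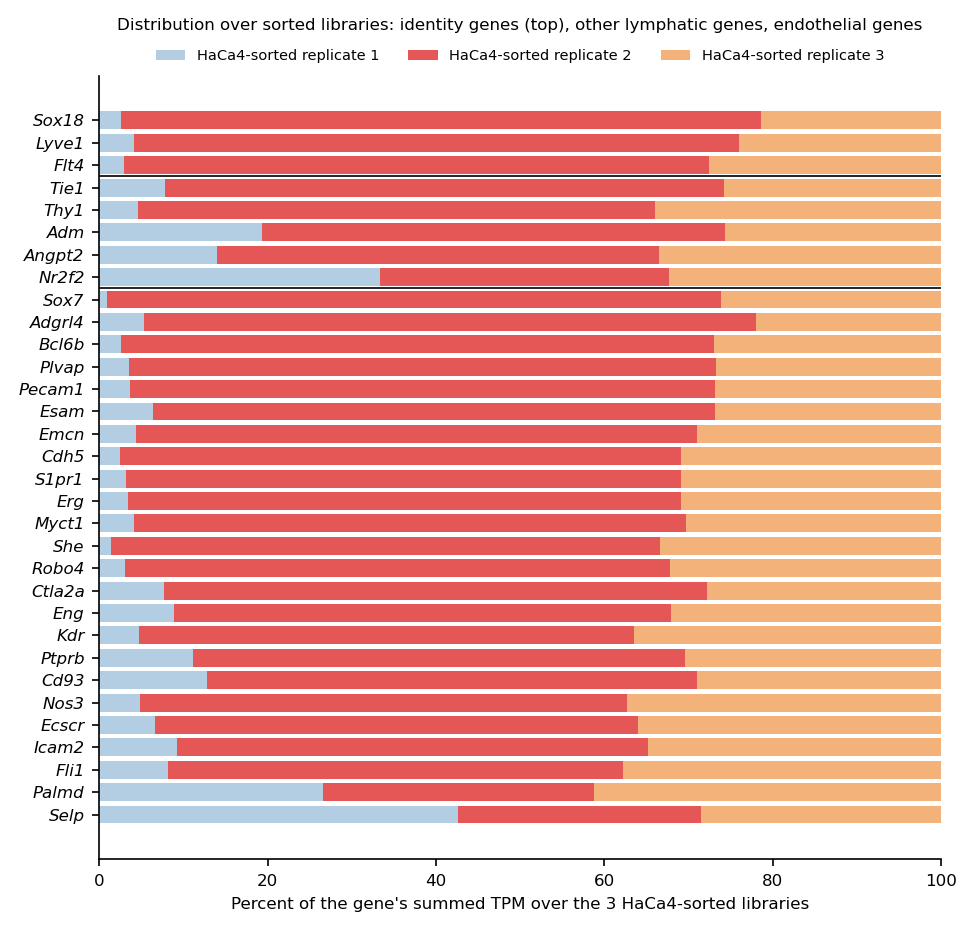
Percent of each gene's TPM, summed over the 3 HaCa4-sorted libraries, that falls in each library, for the 3 identity genes at the top, 5 other lymphatic genes, and 24 endothelial genes. Replicate 2 holds between 69.4% and 76.0% of the identity genes, most other bars have a like division, and *Nr2f2*, *Palmd*, and *Selp* are spread more evenly.

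A list of 35 genes of the lymphatic programme includes the 4 identity genes, and 5 others of it were listed for HaCa4. All 5 had a positive log2 fold change, as did 192 of the 290 listed genes, with a median of 1.57 against 0.74 over all listed genes. Of the 5, *Adm* passed both thresholds. *Adm* encodes adrenomedullin, a peptide needed for lymphatic growth, and reached 5.77, 16.5, and 7.66 TPM in HaCa4-sorted against 1.67 and 1.03 TPM in HaCa4 control (log2 fold change 2.11, limma adjusted p = 0.0366). *Nr2f2* encodes COUP-TFII, the partner of SOX18 in the induction of PROX1. In contrast to the identity genes, it was expressed in HaCa4 cells alone, at 38.9 and 35.6 TPM, and differed little between the sorted libraries, at 50.3, 51.7, and 48.9 TPM. Its log2 fold change of 0.43 had an adjusted p of 0.0418 from limma but stayed below the fold threshold. *Tie1*, a receptor of the angiopoietin system, reached 0.67, 5.68, and 2.21 TPM against 0.23 and 0.12 TPM (limma adjusted p = 0.0855). *Angpt2*, a ligand of the same system, reached 2.43, 9.12, and 5.83 TPM from 1.02 and 0.91 TPM (limma adjusted p = 0.0543). *Thy1*, a surface glycoprotein, reached 0.34, 4.58, and 2.53 TPM, with both controls listed at 0 (limma adjusted p = 0.0795). *Prox1*, *Ccl21a*, *Reln*, and *Nrp2* were not among the genes listed for HaCa4 and were not analysed here.

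Over the lymphatic and endothelial lists together, 6 of 32 genes passed in either direction, and 16 had an unadjusted p under 0.05. Both shares were below those of all 290 listed genes, of which 87 passed and 177 had an unadjusted p under 0.05. The number for the lists moved with single libraries, and was 31 without HaCa4-sorted replicate 1, 4 without replicate 2, and 0 without replicate 3. In the fit without replicate 3, limma gave 7 genes of these lists with an unadjusted p under 0.05. The number over all 290 genes moved with the same libraries, to 194, 87, and 0 in that order. Without replicate 1, 31 of the 32 list genes and 194 of all 290 passed, against 6 and 87 with every library. The share that passed thus grew more in these lists than over all listed genes.

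Of the keratins listed for HaCa4, *Krt8* was abundant in HaCa4-sorted, and the others were far lower. *Krt19* was at 16.6, 18.5, and 29.3 TPM in HaCa4-sorted replicates 1 to 3. *Krt6b* was at 3.31, 1.40, and 2.76 TPM there, against 14.3 and 9.09 TPM in HaCa4 control. Of 40 keratinocyte genes, 4 were listed, of which *Krt19* rose, *Krt6b* and *Krt8* fell, and *Dsg3* did not pass. Of all 290 listed genes, 46 rose and 41 fell. The 4 keratinocyte genes had a summed TPM of 321 to 410 in the controls and 233 to 276 in HaCa4-sorted, which was lower without overlap. *Krt8*, a simple epithelial keratin, made up most of this sum. The level went from 284 and 380 TPM in HaCa4 control to 220, 205, and 238 TPM in HaCa4-sorted (log2 fold change -0.57, limma adjusted p = 0.0391). The keratinocyte sum was lowest in replicate 2, at 233 TPM, where the identity genes were highest, and highest in replicate 3, at 276 TPM. Its part in the result was not tested.

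**Figure D3:**
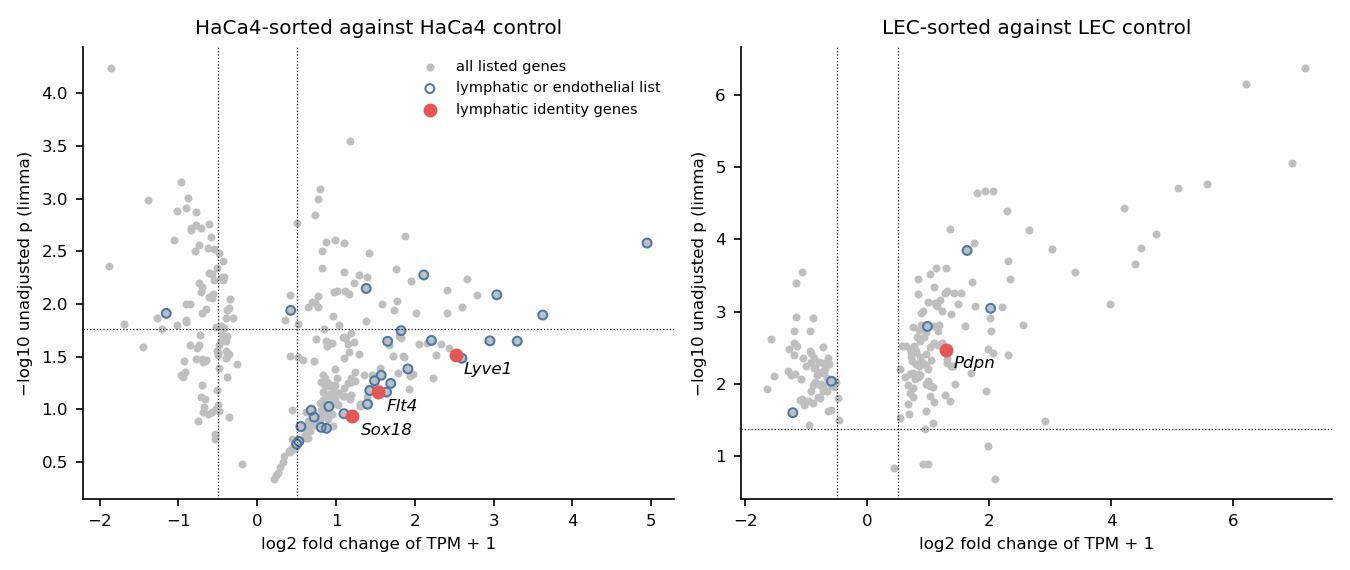
Log2 fold change of TPM + 1 against the negative log10 of the unadjusted p from limma, for the 290 genes listed for HaCa4 and the 191 listed for LECs; dotted lines mark log2 fold changes of -0.5 and 0.5 and the highest unadjusted p that gave an adjusted p within 0.05. *Lyve1*, *Flt4*, and *Sox18* lie to the right but below the horizontal line, and *Pdpn* lies above it.

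The genes whose distribution over the 5 HaCa4 libraries was most like that of an identity gene included several of the endothelial list. Likeness was the overlap of 2 profiles, each being the percent of a gene's TPM that falls in each library, over 283 other genes with a summed TPM of at least 1. For *Flt4* the nearest were *Sfrp1* (a secreted WNT antagonist at no more than 0.77 TPM, 99.7% overlap), *Plvap* (99.2%), *Bcl6b* (99.0%), and *Pecam1* (98.8%), against a median of 48.5% over the 283 genes. For *Lyve1* they were *Tfpi2* (97.7%), *Rasgrp3* (97.7%), *Adgrl4* (97.6%), and *Clca3a1* (97.3%), against a median of 47.3%. For *Sox18* they were *Fam174b* (96.5%), *Adgrl4* (96.4%), *Lyve1* itself (95.8%), and *Clip3* (95.1%), against a median of 44.0%. *Adgrl4*, an adhesion receptor of endothelial cells, was thus near both *Lyve1* and *Sox18*, but at only 0.08, 1.09, and 0.33 TPM in the sorted libraries. These overlaps describe 5 libraries that are shared by all genes and dominated by sorted replicate 2.

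*Pdpn* was abundant in LECs and was higher in LEC-sorted than in LEC control. It was at 155, 97.0, and 179 TPM in LEC control replicates 1 to 3 and at 436, 380, and 239 TPM in LEC-sorted replicates 1 to 3. The lowest sorted library exceeded the highest control by 1.33-fold, and the sorted mean was 2.44 times the control mean. The highest and lowest libraries differed by 1.85-fold within the controls and by 1.82-fold within LEC-sorted. The log2 fold change was 1.28 (standard error 0.30, 95% interval 0.58 to 1.99, limma adjusted p = 0.00769), and *Pdpn* took place 51 among the 191 listed genes when these were ordered from the highest log2 fold change down. Of these genes, 63.9% passed both thresholds as higher in LEC-sorted, and the same number, 63.9%, were higher without overlap, so that a rise was the usual outcome in this list. As many genes are listed for LECs as the study called different in these same libraries, with the same split of directions, so that *Pdpn* was probably listed because it differed. Its test is therefore not independent evidence of its direction. By mean TPM, *Pdpn* had place 21 of the 191.

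The rise of *Pdpn* did not depend on a single library. With each of the 6 LEC libraries left out in turn, the log2 fold change was between 1.03 and 1.54, and it passed in each fit. The call did depend on scaling. With every LEC library brought to the same median over the 191 listed genes, the log2 fold change was 0.66 and no longer passed (limma adjusted p = 0.131). Of these genes, 127 had a positive log2 fold change, so that such scaling takes out part of the usual rise in the list. This scaling shifted the LEC genes by a median of -0.61.

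Few of the other genes of these lists were listed for LECs. Of the lymphatic list, *Adm* rose along with *Pdpn*, from 401, 306, and 325 TPM to 810, 715, and 537 TPM (log2 fold change 0.99, limma adjusted p = 0.00527), and in both genes sorted replicate 1 was highest and replicate 3 lowest. Of the endothelial list, 4 genes were listed, and they moved in both directions. The selectins *Selp* and *Sele* rose (log2 fold changes 2.02 and 1.64), whereas *Kdr* fell by 0.59 and *Clec14a*, an endothelial surface lectin, fell by 1.22 on the log2 scale. Of all 191 genes listed for LECs, 122 rose and 62 fell. *Kdr*, which shares VEGF-C as a ligand with VEGFR3, fell from 147, 172, and 137 TPM to 88.5, 97.4, and 117 TPM (limma adjusted p = 0.0126). *Lyve1*, *Flt4*, and *Sox18* were not among the genes listed for LECs, nor *Pdpn* among those listed for HaCa4. No level of them can therefore be given there.

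A keratinocyte transcript was also found in LEC-sorted. *Krt8*, the 1 gene listed of 40, was at 0 in the 3 LEC controls and at 0.19, 2.19, and 0.89 TPM in LEC-sorted replicates 1 to 3. *Pdpn* was highest in replicate 1, where *Krt8* was lowest. The part of carcinoma cell transcripts in the rise of *Pdpn* was not tested.

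The 4 listed LEC genes nearest in profile to *Pdpn* over the 6 libraries were *Dtwd1* (96.3% overlap), *Rgs16* (94.0%), *Lif* (93.6%), and *Nts* (93.0%), against a median of 75.7% over 190 genes. *Rgs16* is a regulator of G-protein signalling, *Lif* a cytokine of the IL-6 family, and *Nts* the precursor of the peptide neurotensin. *Rgs16* shared the order of *Pdpn* among the sorted libraries, with 579, 470, and 338 TPM, against 282, 106, and 162 TPM in LEC control. *Dtwd1* was lower throughout, with 34.4, 27.7, and 21.7 TPM in LEC-sorted against 12.0, 7.29, and 11.2 TPM in LEC control. All 4 were higher in LEC-sorted, which their choice by likeness to *Pdpn* had fixed.

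**Figure D4:**
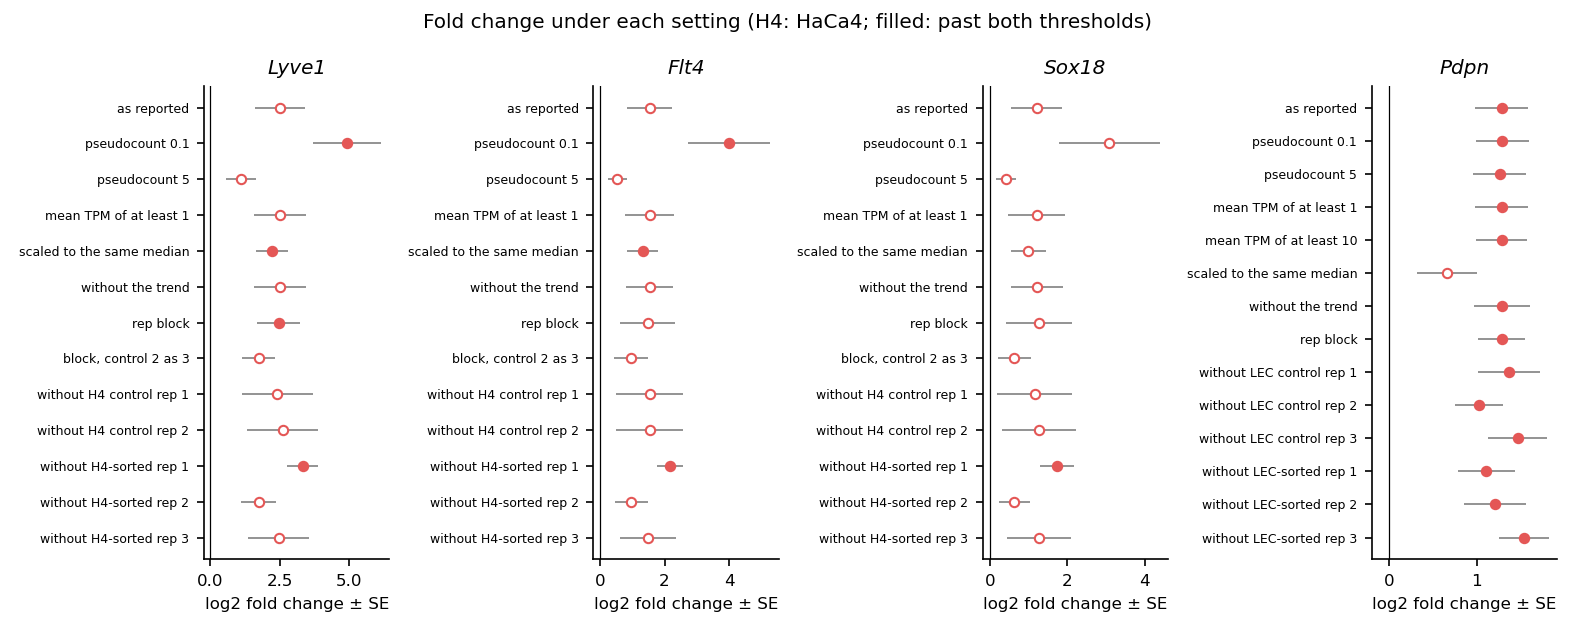
Log2 fold change with its standard error for each of the 4 genes under every setting tried, as rows; filled points passed both thresholds and open points did not. *Pdpn* passed in each fit but the one with libraries scaled to the same median, and the 3 HaCa4 genes passed together only when HaCa4-sorted replicate 1 was left out.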

How the data were processed

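Total RNA of 11 libraries was sequenced on a BGISEQ platform. The authors filtered reads with SOAPnuke and aligned them to GRCm38.p6 with HISAT, version 2.0.4 in the submitters' processing notes. The deposited values are TPM of single libraries with 2 decimals. The tool that gave the TPM values and the strand setting are not given in the sources used here. The listed genes hold 1.84% to 3.85% of each library's TPM and are a selection. For LECs they are as many as the study called different in these libraries, so the tests are not independent of that selection. For HaCa4 the rule is not given, and the tests may not be independent of it either. Because TPM keeps no depth, counting error is unknown. Replicates set the precision, and since no source calls them separate cultures, their spread may be technical. Replicate libraries shared at most 5 identical values above 0.

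Each sorted group was compared with the control of its cell line by limma 3.58.1 (R 4.3.3) on log2(TPM + 1), the prior variance following mean expression, over all genes listed for that line. Tests were two-sided with Benjamini-Hochberg adjustment. Data were simulated with normal noise, each gene having the same SD in both groups. Of the genes, 145 of 290 were changed for HaCa4 and 95 of 191 for LECs. On these data, limma recovered 58.9% of 1 log2 unit changes and 85.8% of 2 log2 unit changes for HaCa4, and 75.6% and 94.4% for LECs. The 3 HaCa4 identity genes varied almost only in the sorted group, so these rates do not describe them. The genes, the lists of markers, and the tests were chosen with earlier results of these data known. The text names the 4 genes, the 4 nearest to each in profile, and the genes of each list with the highest sorted mean TPM; other list genes named for their role or values were chosen after these were seen. The alternatives were other pseudocounts, filters on mean TPM, scaling to the same median over the listed genes, no trend, a replicate block, and leaving out each library. Genes were matched to RefSeq by Entrez ID. Of the 4 genes, 2, *Flt4* and *Pdpn*, had a promoter window. Python 3.11.15 with pandas 2.3.3 and matplotlib 3.10.9 served for the rest.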

Additional observations from a re-analysis of the deposited data

How the results depend on the processing

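The direction of all 4 genes was kept under every alternative. Because each sorted library lay above each control of its line, leaving out libraries or changing the pseudocount could not have reversed it. A pseudocount of 0.1 gave log2 fold changes of 4.92 in *Lyve1* and 3.99 in *Flt4*, which passed, and 3.09 in *Sox18*, which did not, whereas a pseudocount of 5 gave 1.13, 0.54, and 0.41, and none passed. After scaling to the same median, *Lyve1* (2.22) and *Flt4* (1.33) passed, and *Pdpn* fell to 0.66 and no longer passed. With a replicate block, *Lyve1* was 2.47 and passed, but with the second HaCa4 control numbered 3 in the block, as in the name of its deposited table, it was 1.75 and did not (limma adjusted p = 0.105). *Pdpn* was 1.28 with the replicate block. Leaving out single libraries gave ranges of 1.75 to 3.34 for *Lyve1*, 0.97 to 2.16 for *Flt4*, and 0.62 to 1.73 for *Sox18*. The 6 lymphatic and endothelial genes past the thresholds in HaCa4 (87 of all 290 genes) became 21 with a pseudocount of 0.1 (177 of all), 18 after scaling (145 of all), and 12 with the replicate block (115 of all). They became 11 of 25 tested with a mean TPM of at least 1 (120 of all 231 tested) and 4 of 5 tested with a mean TPM of at least 10 (93 of all 138 tested), and ranged from 0 to 31 without single libraries. With a pseudocount of 5, without the trend, or with the second control numbered 3 in the block, limma gave 0 (33, 0, and 22 of all), with 9, 13, and 10 list genes at an unadjusted p under 0.05. The cause was not tested, except that leaving out a control leaves 1 control library, taken to vary like the others. With the filter at a mean TPM of 10, *Lyve1*, *Flt4*, and *Sox18* were not tested. The replicate numbers were not treated as pairs, because no source says that a number marks a shared culture or day. In HaCa4, the deviations of same-numbered libraries correlated at 0.231 and 0.284, but there were only 2 such pairs, and the deviations of 2 controls mirror each other. In LECs they correlated at 0.23, 0.074, and -0.019.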

Other observations

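Marker lists for other cell types and for stress of dissociation held few of the listed genes. Of 14 leukocyte genes, 0 were listed for either cell line. Of 14 genes of fibroblasts and mural cells, 0 were listed for HaCa4 and 1, *Dcn* (decorin, a matrix proteoglycan), for LECs. *Dcn* went from 0.07, 0.60, and 0.26 TPM in LEC control to 13.6, 88.9, and 30.1 TPM in LEC-sorted, a difference of 4.73 on the log2 scale (limma adjusted p = 0.00124). The rise of *Dcn* in LEC-sorted was largest in replicate 2, as was that of *Krt8*, whereas *Pdpn* was highest in replicate 1. Of 20 genes of the dissociation response, *Ier2* fell in HaCa4-sorted, from 101 and 96.9 TPM to 69.7, 75.4, and 63.8 TPM (-0.51 on the log2 scale, limma adjusted p = 0.0366). In LEC-sorted, *Ier3* and *Socs3* rose (log2 fold changes 1.75 and 0.91), and *Fosb* fell by 1.64 on the log2 scale. Over all listed genes, 46 rose and 41 fell of 290 in HaCa4, and 122 rose and 62 fell of 191 in LECs. The part of these marker genes in the results for the identity genes was not tested.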
